A study of Rattus norvegicus with 57 samples.

Results

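Transcripts of epidermal growth factor (Egf), of 4 other ligands of its receptor (Hbegf, Areg, Ereg and Tgfa) and of 3 receptors (Egfr, Erbb2 and Erbb3) were followed in rat kidney cortex after cisplatin, a platinum drug that injures the renal tubule. The 8 genes were chosen by symbol out of 14217 named on the array, and 11 of 31042 probe sets measured them. Each gene was read from the probe set with the highest mean of log2(signal + 16). Kidneys came from 57 male Han Wistar [Crl:WI(Han)] rats aged 8 weeks, which had received a single intraperitoneal injection of saline alone (control), 1 mg/kg cisplatin or 3 mg/kg cisplatin and were killed on day 3, 5, 8 or 26. Each group held 5 arrays, except 4 for controls on day 26 and 3 for 1 mg/kg on day 5, where the design gives 6 animals per group. RNA came from a homogenate enriched in cortex, so all cell types of the cortex were measured together. In such bulk RNA, fewer cells of a type and less RNA per cell cannot be told apart.

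In the mammalian kidney, EGF is made as a membrane precursor by the thick ascending limb and the distal convoluted tubule and is released mostly into urine, whereas its receptor EGFR is found along much of the nephron. The other ligands are also membrane precursors, freed by metalloproteases such as ADAM17, and several of them are known to be transcribed after tissue injury. EGFR pairs with itself or with ERBB2, which has no ligand of its own, and ERBB3, which has little kinase activity and binds neuregulins. These receptors signal through the RAS, MEK and ERK kinases to immediate early genes.

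Tissue identity was checked against 7 measured markers of cortex. In control kidneys, signals ran from 2838 to 3666 for the proximal tubule receptor Lrp2 and from 3087 to 4952 for the phosphate transporter Slc34a1, while the podocyte gene Nphs1 ran from 78.2 to 155. The 7 measured medullary markers, of which Aqp2 is also on the list of cortex markers, gave summed signals of 2329 to 3506 in controls. Signals are in MAS5 units, scaled alike on every array (trimmed mean 99.99), and array medians ran from 20.3 to 26.2. Within groups, arrays correlated at 0.973 to 0.993 across probe sets.

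Of the 8 genes, 7 passed the filter and were tested, since Ereg was removed by it. Counts of tested genes past the threshold (adjusted p under 0.05 in limma, over 11680 genes) are set against the share of all genes past it. At 3 mg/kg, 1 of 7 was higher and 0 lower than in controls on day 3, when 9.85% of all genes passed (5.57% higher, 4.28% lower). The day 5 counts were 1 higher and 1 lower, beside 8.8% of all genes (5.31% higher, 3.49% lower). The day 8 counts were 4 higher and 2 lower, beside 37.3% of all genes (21.4% higher, 15.9% lower). By day 26 none of the 7 passed, beside 0.753% of all genes (0.557% higher, 0.197% lower). At 1 mg/kg none of the 7 passed at any time. Among all genes the shares at 1 mg/kg were 0.0942% for day 3, 0.0171% for day 5, 0.522% for day 8 (0.428% higher, 0.0942% lower) and 0.00856% for day 26. Both doses share their control arrays on each day.

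Promoters of 6 of the 8 genes were matched in RefSeq (build GRCr8), each from 250 bases before to 50 bases after the gene's start. Those of Egf and Areg are printed because at 3 mg/kg Egf passed as lower and Areg as higher, though on different days. Egf passed on day 8, and Areg on days 3 and 5. Both lie on the minus strand, at chr2:220976248-220976547 for Egf and at chr14:17265592-17265891 for Areg. Capitals mark the cyclic AMP response element, spelled TGACGTCA and searched on both strands.
Egf: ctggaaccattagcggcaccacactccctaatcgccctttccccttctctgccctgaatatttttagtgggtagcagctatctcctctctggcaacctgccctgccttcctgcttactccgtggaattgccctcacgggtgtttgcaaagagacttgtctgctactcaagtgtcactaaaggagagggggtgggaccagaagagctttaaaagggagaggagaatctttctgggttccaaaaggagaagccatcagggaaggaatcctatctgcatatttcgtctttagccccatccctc
Areg: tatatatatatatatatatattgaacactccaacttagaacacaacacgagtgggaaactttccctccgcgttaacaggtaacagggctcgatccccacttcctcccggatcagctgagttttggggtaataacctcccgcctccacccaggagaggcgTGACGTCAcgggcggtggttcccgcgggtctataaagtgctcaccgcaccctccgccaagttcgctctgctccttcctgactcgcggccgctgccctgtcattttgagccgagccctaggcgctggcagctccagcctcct
The element occurred once in these windows, in Areg, with its first base at -91 from the start. It was present in 1.83% of 33469 rat promoters of this length. The AP-1 element TGANTCA, present in 7.33% of them, was in none of the 6. Such matches describe letters in a window and are not evidence of binding.

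Egf transcript fell after 3 mg/kg on day 8 to a fraction of its control level, lay below every control on day 5, and averaged about the control level on day 26. On day 8 at 3 mg/kg, signals were 668.7, 45.0, 1314, 145 and 78.1, against 2625, 2828, 2956, 2652 and 2773 in controls. All 5 treated animals lay below every control, as in 6.95% of all genes, and they differed among themselves far more than controls did. Egf averaged 450.1 ± 545 in the treated animals and 2767 ± 135 in controls (SD, n = 5 each). The mean of log2(signal + 16) fell by 3.52 ± 0.36 (SE, limma adjusted p = 8.67e-11), equal to a fold of 11.5 lower in signal + 16. This fold compares means of logs, in which the lowest animals weigh more than in the mean signals. The standard error pools the spread over all groups. With these groups fitted alone the adjusted p in limma was 0.00483.

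On day 5 at 3 mg/kg, Egf signals were 1704, 2348, 1679, 2385 and 2313, against 2730, 2898, 3205, 2747 and 2945 in controls. The groups did not overlap, as in 3.82% of all genes for a lower level. The difference of -0.49 ± 0.36 did not pass in the limma fit, which pools the spread of all groups (adjusted p = 0.439). It reached p = 0.00794 in an exact permutation test, unadjusted and the smallest that 5 against 5 allows, and adjusted p = 0.00919 in limma with the compared groups alone.

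The lower dose gave a smaller shift in Egf. On day 8 at 1 mg/kg, signals were 1884, 2492, 1165, 2597 and 2183, each below the lowest same-day control at 2625, as in 0.908% of all genes. The difference of -0.47 ± 0.36 did not pass in limma (adjusted p = 0.611, 95% interval -1.20 to 0.25), while the exact permutation p was 0.00794 (two-sided, unadjusted). Replicate 1 of this group, the first of these signals, had the highest actin 3'/5' ratio of the 57 arrays, 8.58, a ratio that reads RNA integrity and labelling, against 4.52 to 6.01 in the rest of the group. Without it the difference was -0.45 (adjusted p = 0.71). On day 8, 3 mg/kg differed from 1 mg/kg by -3.05 ± 0.36 (limma adjusted p = 1.53e-08, and 0.0393 with these groups alone). The lowest animal at 1 mg/kg, at 1165, lay under the highest at 3 mg/kg, at 1314.

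Day 3 and day 26 bracket the fall. On day 3, Egf averaged 2925 ± 410 at 1 mg/kg and 2666 ± 172 at 3 mg/kg, against 3216 ± 431 in controls (SD, n = 5 each). The 3 mg/kg difference of -0.26 ± 0.36 did not pass in limma (adjusted p = 0.689), with 4 of 5 animals below every control and an exact permutation p of 0.0317, unadjusted. On day 26 the mean was 2969 ± 392 at 1 mg/kg and 2846 ± 420 at 3 mg/kg, against 2821 ± 246 in controls, and the 3 mg/kg difference was 0.0040 with a 95% interval of -0.77 to 0.77. Over all 12 groups, the 3 lowest means were those of 3 mg/kg on day 8, 1 mg/kg on day 8 (2064 ± 575) and 3 mg/kg on day 5 (2086 ± 361). Ranked by mean, the neighbouring groups overlapped in all pairs but 1, between 3 mg/kg on day 3 and 3 mg/kg on day 5. The change in the 3 mg/kg effect itself passed in limma between days 5 and 8 (-3.03 ± 0.51, adjusted p = 6.07e-05) and between days 8 and 26 (3.52 ± 0.53, adjusted p = 5.95e-06). Over the alternative settings these limma adjusted p reached 0.0170 and 0.0130 at most.

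**Figure D1:**
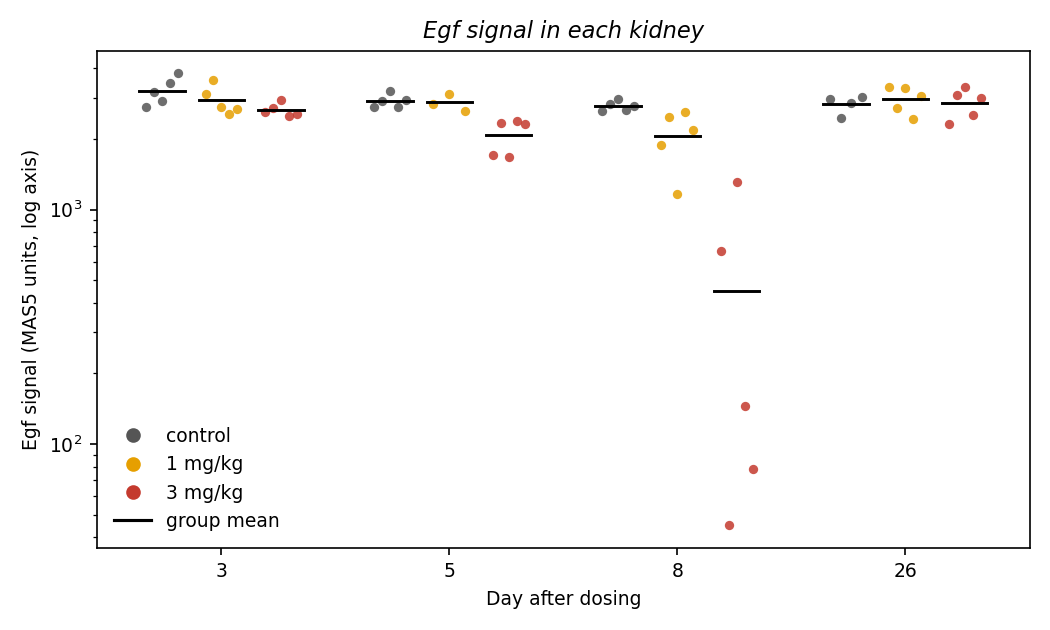
Egf signal (MAS5 units, log axis) in each kidney by day after dosing (3, 5, 8 and 26), with points for animals and bars for group means of control, 1 mg/kg and 3 mg/kg. The 3 mg/kg animals spread from 45.0 to 1314 on day 8, below every control, and on day 26 the 3 groups overlap.

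Areg, which encodes amphiregulin, a low-affinity EGFR ligand, took another course: it was higher at 3 mg/kg on days 3 and 5 and not on day 8. Signals on day 3 were 55.3, 45.1, 63.9, 94.4 and 65.3 at 3 mg/kg, against 17.0, 41.9, 52.6, 31.4 and 35.5 in controls, with 4 of 5 treated animals above every control. The rise was 0.66 ± 0.21 (limma adjusted p = 0.0353). It did not hold without control replicate 1, 4 or 5 or without 3 mg/kg replicate 3, 4 or 5 (adjusted p from 0.0563 to 0.13), nor with quantile normalization (0.052) or no offset (0.0537). On day 3 the actin 3'/5' ratio was 5.89 ± 0.10 at 3 mg/kg and 4.66 ± 0.25 in controls (SD, n = 5 each), and with it as a covariate the Areg difference was 0.62 (adjusted p = 0.136).

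On day 5, Areg signals were 91.3, 27.2, 66.7, 53.1 and 46.0 at 3 mg/kg, against 14.1, 16.4, 27.3, 20.9 and 21.8 in controls. Only replicate 2 at 3 mg/kg lay within the control range. The rise was 0.96 ± 0.21 (limma adjusted p = 0.00175), equal to a fold of 1.95 in signal + 16, and it passed with each array of these groups left out in turn (0.81 to 1.13). On day 8, signals of 67.4, 24.4, 26.9, 47.8 and 23.4 at 3 mg/kg stood against 37.3, 23.7, 23.8, 28.9 and 70.6 in controls, and the groups overlapped throughout (0.03 ± 0.21, adjusted p = 0.928). From day 5 to day 8 the mean Areg signal rose from 20.1 to 36.9 in controls and fell from 56.9 to 38.0 at 3 mg/kg. The 3 mg/kg effect on Areg was thus smaller on day 8 than on day 5 by 0.93 ± 0.30 (limma adjusted p = 0.0242), with both groups moving. That call was lost without control day 8 replicate 5 (adjusted p = 0.072), 3 mg/kg day 5 replicate 1 (0.0621) or 3 mg/kg day 8 replicate 5 (0.058), and with the compared groups alone (0.0899) or array weights (0.052). At 1 mg/kg on day 3, Areg ran from 39.4 to 75.6 (median 55.2), against 17.0 to 52.6 in controls (median 35.5), a difference of 0.52 ± 0.21 that did not pass (adjusted p = 0.681).

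Hbegf, which encodes heparin-binding EGF-like growth factor, was dim, and exceeded the 40th percentile of all signals on only 23 of 57 arrays. Signals at 3 mg/kg on day 8 were 13.0, 24.8, 19.0, 23.0 and 25.8, against 14.2, 8.83, 9.25, 7.90 and 13.5 in controls, so that 4 of 5 treated animals exceeded every control. The rise was 0.47 ± 0.12 (limma adjusted p = 0.00126) and passed with each of these arrays left out in turn. Because 16 is added to signals of this size, the log2 change is smaller than that of the signal itself. On day 8, Hbegf exceeded the 40th percentile in 2 of 5 controls and in 4 of 5 animals at 3 mg/kg. The ratio of such dim signals is itself uncertain. On earlier days the differences at 3 mg/kg were 0.34 ± 0.12 on day 3 (adjusted p = 0.0539) and 0.30 ± 0.12 on day 5 (0.0999), and neither passed. Without control day 3 replicate 5 the day 3 value was 0.40 (adjusted p = 0.035). At 1 mg/kg on day 8, Hbegf was 12.5, 11.2, 29.7, 18.7 and 15.4, and the highest of these, replicate 3, was also the animal with the lowest Egf in that group.

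Tgfa encodes transforming growth factor alpha, a ligand that binds EGFR alone. Its signals on day 8 were 39.8, 42.7, 31.3, 36.0 and 44.9 at 3 mg/kg, against 39.1, 33.5, 15.4, 23.9 and 23.5 in controls. The groups overlapped, with 3 of 5 treated animals above every control, and the rise was 0.37 ± 0.12 (limma adjusted p = 0.0105). Without control day 8 replicate 3 the adjusted p was 0.0749, and with the compared groups alone it was 0.0788. A second, dimmer Tgfa probe set rose by 0.31 ± 0.11 (adjusted p = 0.0235). Against 1 mg/kg on day 8, where signals ran from 19.6 to 29.6, 3 mg/kg was higher in 5 of 5 animals without overlap, as in 2.99% of all genes (0.47 ± 0.12, adjusted p = 0.00221). The 3 mg/kg effect differed on day 26 from day 8 by -0.49 ± 0.17 (adjusted p = 0.0429), which did not hold on leaving out 12 of 19 arrays in turn.

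Ereg, which encodes epiregulin, ranged from 1.45 to 12.7 and exceeded the 40th percentile of the array's signals on 0 of 57 arrays. Tested without the filter, its differences from controls ran from -0.12 to 0.13 over the 8 comparisons and none passed. Changes of Ereg were not detectable at such signals.

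Egfr, the receptor that all 5 of these ligands bind, was higher at 3 mg/kg on day 8, in some animals more than in others. Its signals were 107, 204.5, 93.9, 294.8 and 187.5 at 3 mg/kg, against 82.1, 103.9, 84.5, 94.6 and 101 in controls, with 4 of 5 treated animals above every control. The rise was 0.73 ± 0.17 (limma adjusted p = 0.000458, and 0.0472 with these groups alone). The 3 highest values belonged to replicates 2, 4 and 5, the same animals that had the 3 lowest Egf signals. In the other 11 groups Egfr ran from 67.8 to 149. At 1 mg/kg on day 8 it was 105, 97.1, 83.9, 82.0 and 77.4, and 3 mg/kg exceeded 1 mg/kg by 0.78 ± 0.17 (adjusted p = 0.000313, and 0.0793 with these groups alone). A second Egfr probe set had signals of 35.7, 66.5, 33.4, 77.9 and 51.7 at 3 mg/kg, against 26.1, 50.9, 29.8, 47.8 and 60.7 in controls. Its difference of 0.22 ± 0.18 did not pass (adjusted p = 0.379), so the probe sets for Egfr did not give the same call.

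Differences in Erbb2 and Erbb3 were small. Erbb2, the partner with no known ligand of its own, had day 8 signals of 64.2, 39.9, 55.7, 61.2 and 57.3 at 3 mg/kg, against 50.7, 54.2, 32.6, 38.6 and 48.6 in controls. Its rise of 0.24 ± 0.09 (limma adjusted p = 0.0437) was lost without control replicate 3 (0.16, adjusted p = 0.203) or 4, without 3 mg/kg replicate 1, 3, 4 or 5, and with these groups alone (adjusted p = 0.196), quantile normalization (0.0858) or no filter (0.0527). Erbb3, the neuregulin receptor, was 26.5, 22.3, 20.6, 20.8 and 23.0 at 3 mg/kg on day 5, against 38.2, 31.4, 41.3, 26.7 and 26.6 in controls, below every control in 5 of 5 animals, as in 3.82% of all genes. The nearest animals lay at 26.5 for 3 mg/kg and at 26.6 for controls. Erbb3 fell by 0.33 ± 0.09 (adjusted p = 0.0156), which did not hold without control replicate 1 (0.0512) or 3 (0.074) or with these groups alone (0.0534). On day 8, Erbb3 was 18.9, 14.0, 19.9, 22.0 and 17.3 at 3 mg/kg, against 28.8, 24.2, 23.7, 19.8 and 26.1 in controls. That fall of 0.24 ± 0.09 (adjusted p = 0.0365) was lost without control replicate 1, 2 or 5, without 3 mg/kg replicate 2 or 5, and with these groups alone, an offset of 64 or array weights (adjusted p from 0.0519 to 0.159).

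**Figure D2:**
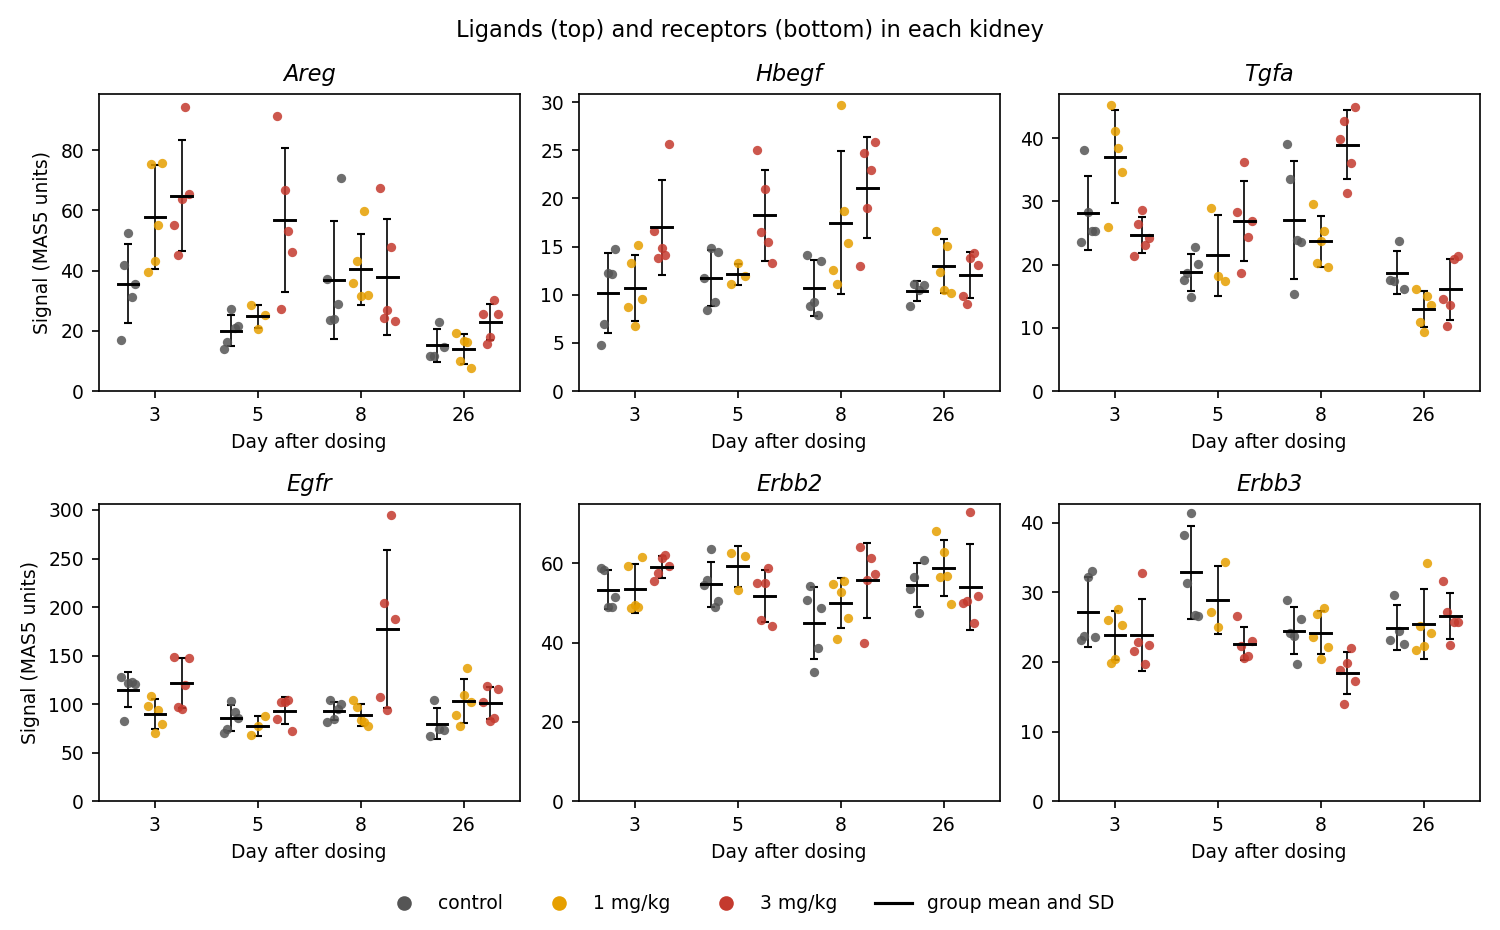
Signals (MAS5 units, linear axes) of Areg, Hbegf and Tgfa in the upper row and Egfr, Erbb2 and Erbb3 in the lower row, by day after dosing. Points are animals, bars are group means and whiskers the SD. Areg at 3 mg/kg averages 64.8 on day 3 and 56.9 on day 5, against 35.7 and 20.1 in controls, and Egfr at 3 mg/kg reaches 294.8 on day 8.

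Between the doses, 3 mg/kg against 1 mg/kg, none of the 7 genes passed on day 3 (3.12% of all genes), day 5 (3.97%) or day 26 (0%), and 3 passed on day 8 (Egf lower, Egfr and Tgfa higher), when 23.2% of all genes did (12.1% higher, 11.1% lower). Areg on day 5 was closest on the earlier days, at 0.78 ± 0.24 (limma adjusted p = 0.0536), and passed without 3 mg/kg replicate 2 (0.0177). Tgfa on day 3 passed without 1 mg/kg replicate 1 (-0.45, adjusted p = 0.0391), and Erbb3 on day 8 without 1 mg/kg replicate 3 (0.0413) or 3 mg/kg replicate 4 (0.0468). Between days, the 3 mg/kg effect differed in 0 of 7 genes from day 3 to day 5 (1.52% of all genes), in 2 from day 5 to day 8 (16.3%) and in 2 from day 8 to day 26 (15%). From day 5 to day 8 Egfr changed by 0.62 ± 0.23 (adjusted p = 0.0608) and passed without control day 5 replicate 1 (0.0474), 3 mg/kg day 8 replicate 1 (0.0162) or replicate 3 (0.00719), as Erbb2 did without 3 mg/kg day 8 replicate 2 (0.0341). From day 8 to day 26 Hbegf passed without 3 mg/kg day 8 replicate 1 (0.0465), and Egfr without replicate 3 (0.0451). In control rats none of the 7 differed on day 26 from day 3 (2.03% of all genes), with Areg at -0.70 ± 0.22 (adjusted p = 0.0912). Without control day 3 replicate 1 that Areg difference was -0.86 (adjusted p = 0.0319).

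**Figure D3:**
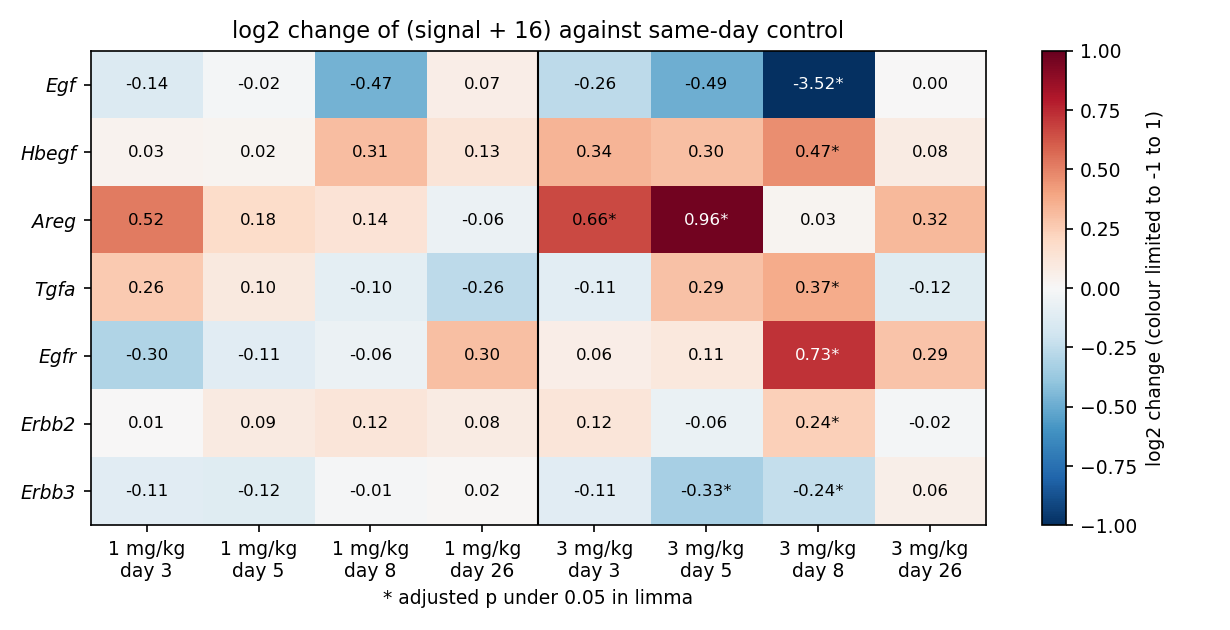
Log2 change of (signal + 16) against same-day controls for the 7 tested genes, with 1 mg/kg in the left and 3 mg/kg in the right columns. Colour is limited to the range -1 to 1, and stars mark limma adjusted p under 0.05. All 9 stars lie at 3 mg/kg: Areg on days 3 and 5, Erbb3 on days 5 and 8, and Egf, Hbegf, Tgfa, Egfr and Erbb2 on day 8.

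Outside the 8 genes, 2 of 6 further ErbB ligands were measured. Nrg1, which encodes neuregulin 1, a ligand of ERBB3 and ERBB4, rose at 3 mg/kg on days 5 and 8. Its signals on day 8 were 105, 276, 77.4, 298 and 165 at 3 mg/kg, against 23.5, 35.5, 30.3, 43.8 and 35.5 in controls, without overlap, as in 9.41% of all genes. Nrg1 rose by 0.89 ± 0.20 on day 5 (limma adjusted p = 0.00179) and by 1.87 ± 0.20 on day 8 (1.2e-10). Its 3 highest animals on day 8 were replicates 2, 4 and 5, as for Egfr. The betacellulin gene Btc did not pass on any day. The receptor gene Erbb4 was not among the genes tested.

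Of 8 measured sheddases and regulators of ligand release, 2 rose and 1 fell at 3 mg/kg on day 3, 0 passed on day 5 and 1 rose and 1 fell on day 8. Among all genes, 5.57% were higher and 4.28% lower on day 3, 5.31% and 3.49% on day 5, and 21.4% and 15.9% on day 8. On day 3, Adam17, the main sheddase of Areg, Hbegf and Tgfa precursors, fell by 0.30 ± 0.08 (limma adjusted p = 0.0177), while its cofactor Nrdc rose by 0.28 ± 0.08 and the pseudoprotease Rhbdf1 by 0.21 ± 0.06. These day 3 values, and those of the lists below, are not adjusted for the actin 3'/5' ratio. That ratio was 5.89 ± 0.10 at 3 mg/kg and 4.66 ± 0.25 in controls on day 3 (SD). On day 8 Rhbdf1 rose by 0.32 ± 0.06, and Timp3, an inhibitor of ADAM17, fell by 0.41 ± 0.08. The list's median change was 0.03 on day 3 and 0.08 on day 8, against 0.04 on both days over all genes.

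The counts on day 8 at 3 mg/kg that follow stand beside 21.4% of all genes higher and 15.9% lower. Among 17 measured adaptors and kinases downstream of EGFR there were 6 rises and 2 falls, with a median of 0.16, against 0.04 over all genes. The transcription factor Stat3 rose by 0.60 ± 0.11 and the PI3 kinase subunit Pik3r1 by 0.52 ± 0.13, while the docking protein Gab1 fell by 0.37 ± 0.06 and the kinase gene Map2k2 by 0.26 ± 0.06. Stat3 also rose on day 3 (0.45 ± 0.11) and day 5 (0.69 ± 0.11). Among 12 measured feedback inhibitors, 6 were higher and 1 was lower on day 8 (median 0.21). The ERK phosphatase Dusp5 rose by 0.63 ± 0.11 and Spry1 by 0.52 ± 0.15, while Lrig1, which promotes EGFR degradation, fell by 0.47 ± 0.12. Errfi1, an EGFR inhibitor that the receptor induces, averaged 1887 ± 430 at 3 mg/kg and 1883 ± 589 in controls on day 8 (SD, n = 5 each), a difference of 0.03 ± 0.20 (adjusted p = 0.919). Replicate 1 was lowest in both groups, at 1160 for 3 mg/kg and 1047 for controls.

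ERK, along with other inducers, switches on immediate early genes such as Fos and Egr1. Of 16 measured targets, 3 mg/kg brought 5 rises and 1 fall on day 3 (median 0.47), 9 rose on day 5 (median 0.65, against 0.00018 over all genes), 12 rose and 1 fell on day 8 (median 0.89) and 7 rose on day 26 (median 0.50, against 0.03 over all genes). The shares of all genes higher and lower were 5.57% and 4.28% on day 3 and 5.31% and 3.49% on day 5. They were 21.4% and 15.9% on day 8 and 0.557% and 0.197% on day 26. Fos averaged 323 ± 173 at 3 mg/kg and 69.3 ± 32.5 in controls on day 8, a rise of 1.83 ± 0.40 (limma adjusted p = 0.000254), and on day 26 it rose by 1.87 ± 0.42 (0.0241). Egr1 rose by 1.92 ± 0.35 on day 3 and by 1.97 ± 0.37 on day 26, when none of the 7 ligands and receptors passed. The summed signal of the 16 targets averaged 1940 in day 26 controls, against 2758, 2792 and 2793 in controls of days 3, 5 and 8. On day 26 it averaged 3125 at 1 mg/kg and 3990 at 3 mg/kg. The part of the low day 26 controls in these rises was not tested. Etv5 fell by 0.49 ± 0.16 on day 3 and by 0.68 ± 0.16 on day 8. At 1 mg/kg on day 8, 7 targets rose and 1 fell (median 0.58), beside 0.428% of all genes higher and 0.0942% lower. Of these targets, Fos rose by 1.85 ± 0.40 and Atf3 by 1.66 ± 0.28, while Etv5 fell by 0.63 ± 0.16. Without replicate 1 of that group, the array with the highest actin ratio, 3 targets rose and 0 fell (median 0.59), beside 0.248% of all genes higher and 0.0428% lower. In that fit Atf3 still passed (1.78, adjusted p = 0.000785), while Fos (1.62, 0.0816) and Etv5 (-0.61, 0.111) did not.

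**Figure D4:**
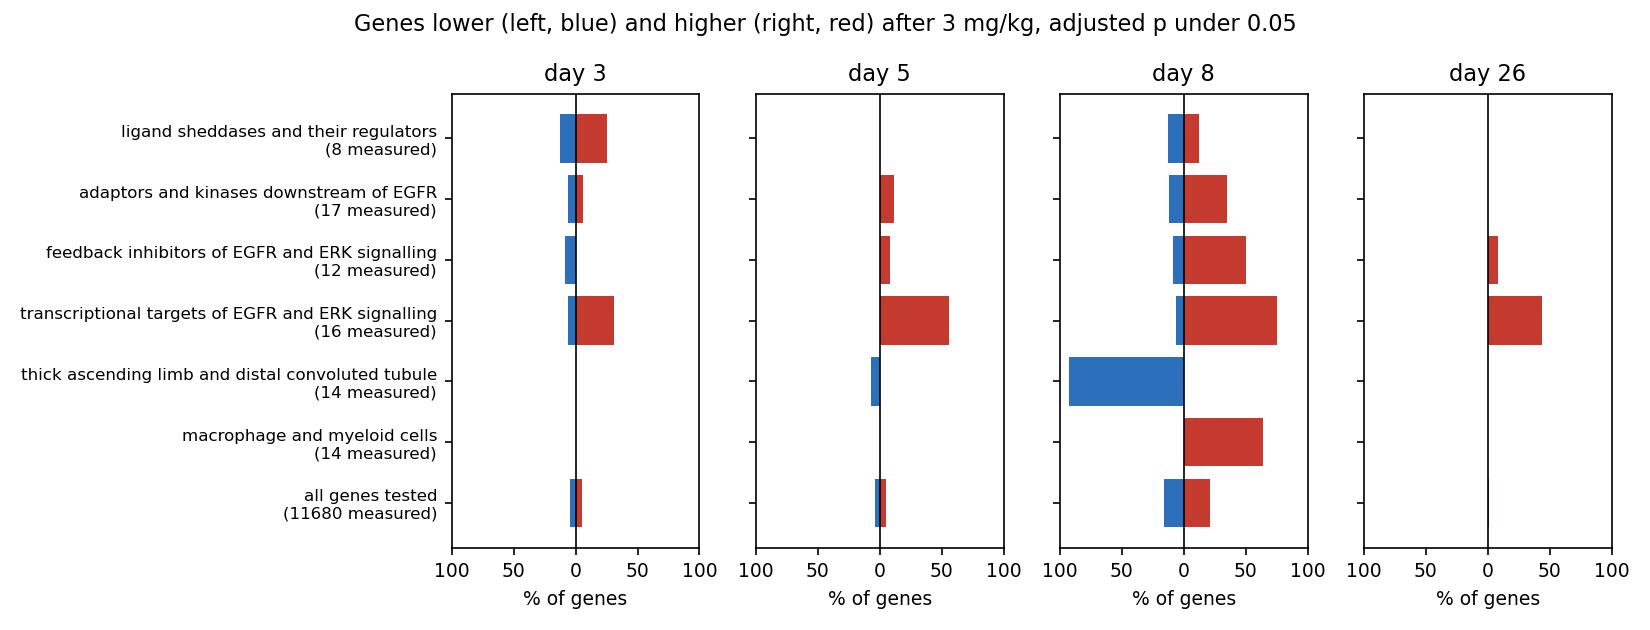
Share of measured genes lower (left, blue) and higher (right, red) than same-day controls after 3 mg/kg, with limma adjusted p under 0.05, in 6 gene lists and in all genes tested on days 3, 5, 8 and 26. On day 8, 13 of 14 genes of the thick ascending limb and distal convoluted tubule are lower and 12 of 16 target genes are higher.

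Genes of the segments that make Egf fell with it on day 8. Of 14 measured genes of the thick ascending limb and distal convoluted tubule, 13 fell and 0 rose at 3 mg/kg (median -1.80), and their summed signal was 4076 to 9763, against 15970 to 19470 in controls without overlap. Umod, the uromodulin gene of the thick ascending limb, was 785.5, 2.68, 921, 21.6 and 5.37 at 3 mg/kg in the order of animals given for Egf, so the same 3 animals were lowest in both. The salt transporter genes Slc12a1 of the thick ascending limb and Slc12a3 of the distal convoluted tubule changed as well: Slc12a1 fell by 2.66 ± 0.41 (limma adjusted p = 7.57e-07) and Slc12a3 fell by 1.93 ± 0.25 (3.28e-08). On day 5 at 3 mg/kg only Calb1 of the 14 passed (-0.51), beside 8.8% of all genes. The summed signal was 15520 to 17640, against 18150 to 19280 in controls without overlap. Slc12a1 on day 5 was 1624, 1326, 1431, 1522 and 1451 at 3 mg/kg, each below the lowest control at 1800, as in 3.82% of all genes. Its difference of -0.44 ± 0.41 did not pass in limma (adjusted p = 0.559). Umod differed by -0.08 on that day.

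At 1 mg/kg on day 8, 0 of the 14 passed (median -0.23), beside 0.522% of all genes, and their summed signal was 10020 to 16930. Replicate 3, with Egf at 1165, also had the lowest Umod of its group, at 1157, against 2424 to 3075 in the others. The tubular injury gene Havcr1 was 912, 32.4, 1085, 32.9 and 17.6 in these animals, against 1.74 to 10.2 in controls, so replicates 1 and 3, which had the lowest Egf, had the highest Havcr1. Havcr1 rose by 2.80 ± 0.62 (limma adjusted p = 0.0178) and did not pass without replicate 1, whose actin ratio was 8.58 (2.15 ± 0.61, adjusted p = 0.132). At 3 mg/kg on day 8, Havcr1 was 2177, 829.5, 679.7, 1581 and 1640 in the order of animals given for Egf. Replicate 3, with the highest Egf of that group, had the lowest Havcr1. Replicate 2, with the lowest Egf, was at 829.5, and replicate 1 had the highest Havcr1.

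Genes of other cell types also moved at 3 mg/kg on day 8, when 21.4% of all genes were higher and 15.9% lower. Of 14 macrophage and myeloid genes 9 rose, with summed signals of 2899 to 4373, against 2365 to 2654 in controls. Among 9 fibroblast and pericyte genes 6 rose (3588 to 4881, against 2455 to 2764), and among 10 tubular injury genes 9 rose (8457 to 13630, against 1516 to 1984). For 12 proximal tubule genes, 3 rose and 3 fell (26780 to 31480, against 24580 to 28660). The 7 markers of cortex, among them Umod and Slc12a3, summed to 7158 to 11030, against 12100 to 13570 in controls. Endothelial genes fell in 3 of 7 cases (1170 to 1322, against 1324 to 1453). In 7 medullary genes, 2 rose and 3 fell (1069 to 2933, against 2563 to 2893). The part of these cell types in the rises of Hbegf, Tgfa and Egfr was not tested.

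**Figure D5:**
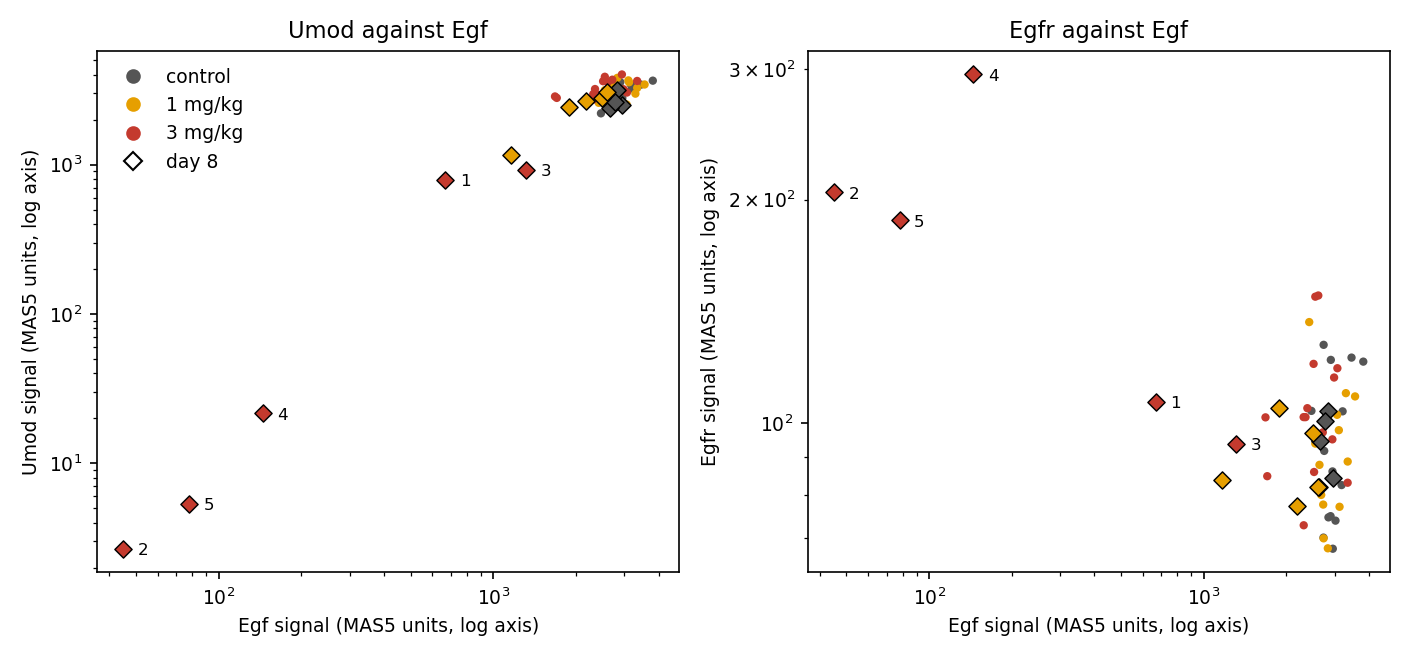
Umod signal (left) and Egfr signal (right) against Egf signal in the 57 kidneys, MAS5 units on log axes. Colours give the dose, diamonds mark day 8 and numbers the 3 mg/kg replicates on day 8. Replicates 2, 4 and 5 are lowest for Egf and Umod and highest for Egfr.

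Across the 57 arrays, the genes whose log2(signal + 16) was most like that of Egf were Umod (Pearson r = 0.979), Ppp1r1a (0.974), Kcne1 (0.952), Casr (0.951) and Kap (0.947). These coefficients describe arrays that share groups, and the 3 mg/kg day 8 animals lie apart from the rest. Casr, the calcium-sensing receptor of the thick ascending limb, was 77.3, 4.47, 56.8, 12.0 and 1.95 at 3 mg/kg on day 8, in the same order of animals. Hbegf was most like Sfn (r = 0.728), Cldn4 (0.717), Pfkfb3 (0.714), Cdkn1a (0.707) and Dmbt1 (0.703). The genes nearest to Areg were Mybl1 (0.762), Tspan8 (0.720), Itm2c (0.706), Maff (0.690) and Hspa2 (0.679), and those nearest to Egfr were Sptan1 (0.726), Usp39 (0.716), Abcc2 (0.709), Mfsd4b2l1 (0.708) and S100g (0.706).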

How the data were processed

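RNA of kidney cortex from 57 rats was hybridised to Affymetrix Rat 230 2.0 arrays. Per the submitters' processing notes, the authors computed 1 intensity for each probe set with MAS5. Version and settings of MAS5 were not given in the sources used here. Gene symbols were those of the platform table, brought up to date by Entrez number. Analyses ran on log2(signal + 16). Probe sets had to exceed the 40th percentile of signals on 3 or more arrays, and 21812 of 31099 did, with 57 control probe sets left out. For each gene the kept probe set of highest mean was used.

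limma 3.58.1 in R 4.3.3 fitted 12 group means over all arrays, with moderated variances and an intensity trend, two-sided, adjusted by Benjamini-Hochberg over 11680 genes per comparison. It was tested on simulated data. In addition, 64 exact permutation tests of single genes against controls were computed, unadjusted, and 15 gave p under 0.05. Groups and replicate numbers came from the labels, and each array is taken as a separate animal. The number of arrays limits the precision. On average over all genes, same-numbered arrays of different groups did not deviate together (mean r = 0.014 over 298 pairs), so they were not paired. Single genes can differ from this average. Errfi1 was lowest in replicate 1 in all control groups and in both dose groups on day 8, but not in every group. Genes named from the pathway lists were taken from the largest 2 rises and 2 falls past the threshold, and cell type lists are given by counts; Umod, Slc12a1, Slc12a3, Havcr1 and Errfi1 were named whatever their result, as were the 5 genes most like Egf, Hbegf, Areg and Egfr. Nphs1, Lrp2, Slc34a1, Btc, Aqp2 and Calb1 are named outside that rule. The 8 genes, the lists and the naming rule were chosen with earlier results of these data known. No protein sequence was used here.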

Additional observations from a re-analysis of the deposited data

Results flagged for a closer look

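The 3 mg/kg effect on Egf was larger on day 8 than on day 5, by -3.03 (limma adjusted p = 6.07e-05), and had gone back by 3.52 between days 8 and 26 (5.95e-06). For Areg the effect on day 8 was below that on day 5 by -0.93 (adjusted p = 0.0242), with 4 of 5 treated animals above every control on day 5 and 0 of 5 on day 8. For Tgfa the effect changed by -0.49 between days 8 and 26 (adjusted p = 0.0429).

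Single animals stood apart from their group in 5 of 88 groups tested, where chance gives about 1 in 20, or 4.4. They were Hbegf in 3 mg/kg day 3 replicate 5 (25.6, others 13.9 to 16.6) and Ereg in 1 mg/kg day 8 replicate 2 (12.5, others 6.23 to 7.78). Egfr was low in control day 3 replicate 2 (82.5, others 121 to 127.5). Erbb2 was high in 3 mg/kg day 26 replicate 3 (73.0, others 44.9 to 51.7), and Erbb3 in 3 mg/kg day 3 replicate 3 (32.8, others 19.6 to 22.8).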

How the results depend on the processing

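Over 2922 alternative values for the 7 tested genes, 2755 kept their direction and side of the threshold, 53 calls were lost and 29 gained, and no called value changed sign; 85 differences that had not passed changed sign. Numbers of the 7 genes past the threshold moved by more than 1.5 times, or to or from 0, as follows, and the cause was not tested. For 3 mg/kg on day 3 (1), quantile normalization and the actin ratio as a covariate gave 0, and array weights gave 2. On day 5 (2) a filter at the 60th percentile gave 1, with Erbb3 not among the genes tested under that filter. On day 8 (6) the compared groups alone gave 3. For 3 mg/kg against 1 mg/kg on day 3 (0), an offset of 64, quantile normalization and the actin covariate gave 1, and array weights 2. On day 5 (0), quantile normalization and the 60th percentile filter gave 1. For the change from day 5 to day 8 (2), the compared groups alone gave 1. From day 8 to day 26 (2), no filter, every kept probe set, the compared groups alone and the replicate block gave 1. For controls on day 26 against day 3 (0), no offset gave 1. Smaller moves were to 4 or 5 for 3 mg/kg on day 8 (5 settings), to 2 or 4 for the doses compared on day 8 (3 settings) and to 3 for the change from day 5 to day 8 (3 settings). Leaving out single arrays gave 0 to 1 for 3 mg/kg on day 3, 1 to 2 on day 5, 4 to 5 on day 8 and 0 on day 26. It gave 0 at 1 mg/kg on all days, 0 to 1 for the doses compared on days 3 and 5, 3 to 4 on day 8 and 0 on day 26, and 0, 1 to 3 and 1 to 3 for the 3 changes between days. For controls it gave 0 to 1. The Tgfa call from day 8 to day 26 was lost on leaving out 12 of 19 arrays in turn (adjusted p from 0.0513 to 0.115). The pairing by replicate number is a shared number only; with the replicate block that call had adjusted p = 0.0509, and no other count of calls changed. The day 8 calls for Egf, Egfr and Hbegf at 3 mg/kg held in all alternatives in which the gene was tested. Hbegf was not tested under the 60th percentile filter, which removed it. Dim signals limit Ereg and Hbegf.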
